A study of Mus musculus with 12 samples.

Results

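The PI3K, mTOR and FOXO axis was examined through 9 genes, *Pik3ca*, *Akt1*, *Tsc1*, *Tsc2*, *Mtor*, *Rptor*, *Foxo1*, *Foxo3* and *Foxo4*, which were taken by symbol from the 21859 genes of the deposited expression table. Expression was measured by RNA-seq in GFRa1+/KIT- undifferentiated spermatogonia, the testicular fraction that contains the spermatogonial stem cells, with 5 control and 7 cryptorchid libraries. All cells came from GFRa1-EGFP reporter mice of 8 to 10 weeks. In the cryptorchid group the left testis had been attached to the abdominal wall 10 days earlier, and the right testis of operated mice, left in the scrotum, served as the control. The genotype field of the labels reads WT for control and Cryptorchid for the operated samples, although the difference between them is surgical, and a strain background beyond the reporter was not given for the sorted cells. Each library was made with Smart-seq2 from the RNA of about 200 cells. The tissue was digested at 32°C for control and at 37°C for cryptorchid testes, so the digestion temperature and the position of the testis cannot be told apart. Which libraries came from the same mouse was not given, and the *P*-values below measure the spread between these libraries.

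Growth factor receptors recruit the lipid kinase PI3K, whose lipid product brings the kinase AKT to the membrane. AKT inactivates the TSC1/TSC2 complex, which otherwise holds the mTOR complex 1 (mTORC1) in check, and it phosphorylates FOXO transcription factors so that they leave the nucleus. In the testis, GDNF signals to spermatogonial stem cells through GFRa1 and RET and onward to AKT, FOXO1 is a known factor of stem cell maintenance, and mTORC1 activity is associated with the passage to differentiation. Most of this control acts on proteins, by phosphorylation and movement within the cell, whereas the values given here are RNA levels. In RNA from pooled cells, fewer cells expressing a gene and less RNA in each cell cannot be told apart.

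Of the 9 genes, *Pik3ca*, the catalytic p110α subunit of PI3K, was the only one past an unadjusted limma *P* of 0.05. The same limit was passed by 9.48% of all genes tested. *Pik3ca* was 1.76-fold higher in cryptorchid than in control spermatogonia (95% interval 1.12- to 2.76-fold). It did not pass after adjustment over all genes tested (limma adjusted *P*=0.421). The other 8 genes, including the 3 FOXO genes, *Akt1*, both *Tsc* genes, *Mtor* and *Rptor*, did not pass in this unpaired fit. With the replicate number as a block, *Foxo3*, *Mtor* and *Rptor* passed the unadjusted limit as well. For replicates 1 to 5 that fit called 3782 of the 16932 genes tested, and no member passed after adjustment. *Mtor* was higher relative to *Rptor* in each cryptorchid library than in any control library. This pattern was found by looking through all 36 pairs of the 9 genes and is therefore given without a test. Of all other genes tested, 0.473% had a ratio to *Mtor*, and 1.10% a ratio to *Rptor*, whose groups did not overlap.

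The sequences upstream of the start site are shown for the 3 genes that these results turn on, *Pik3ca* because it passed the threshold and *Mtor* and *Rptor* because of their ratio. Each line gives the 250 bases before the RefSeq start on GRCm38.p6, 5′ to 3′ on the plus strand, which is the coding strand of all 3 genes. For *Pik3ca* and *Mtor* this start differs from that of GENCODE vM21. The *Pik3ca* window ends at 32397064, upstream of the GENCODE gene start at 32397671. The *Mtor* window ends at 148448581, upstream of the GENCODE gene start at 148448611. Capitals mark a CCAAT box (CCAAT) or a GC box (GGGCGG) on either strand, short elements bound by NF-Y and by SP1-family factors.
*Pik3ca*, chr3:32396815-32397064: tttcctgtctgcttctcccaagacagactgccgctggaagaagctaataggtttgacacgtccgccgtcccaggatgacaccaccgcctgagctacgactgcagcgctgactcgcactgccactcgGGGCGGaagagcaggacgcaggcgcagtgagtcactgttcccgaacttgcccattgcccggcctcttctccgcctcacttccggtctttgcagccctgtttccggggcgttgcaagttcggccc
*Mtor*, chr4:148448332-148448581: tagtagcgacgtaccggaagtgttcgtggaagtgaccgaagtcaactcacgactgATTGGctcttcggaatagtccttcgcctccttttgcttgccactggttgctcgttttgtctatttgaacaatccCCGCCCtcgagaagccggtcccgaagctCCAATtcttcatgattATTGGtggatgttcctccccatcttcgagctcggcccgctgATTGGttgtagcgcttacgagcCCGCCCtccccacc
*Rptor*, chr11:119602655-119602904: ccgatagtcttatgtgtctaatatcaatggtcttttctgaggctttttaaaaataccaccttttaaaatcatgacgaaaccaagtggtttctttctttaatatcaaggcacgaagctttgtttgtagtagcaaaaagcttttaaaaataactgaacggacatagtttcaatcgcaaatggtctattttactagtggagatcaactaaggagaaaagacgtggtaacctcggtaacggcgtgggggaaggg

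The *Mtor* window held 4 CCAAT boxes and 2 GC boxes, the *Pik3ca* window held a single GC box, and the *Rptor* window held neither. Among 32851 mouse promoter windows of the same length, 33.8% held a CCAAT box and 32.7% a GC box, and both elements are therefore common. Of the 9 genes, 8 had an entry in the promoter table, and *Foxo4* did not. The GC box was found in 5 members, *Pik3ca*, *Akt1*, *Mtor*, *Foxo1* and *Foxo3*, and the CCAAT box in 2, *Mtor* and *Foxo1*. The core of the FOXO recognition sequence (GTAAACA, both strands, in 3.17% of all windows) was found only upstream of *Akt1*, at 1 of its 2 RefSeq starts. The E-box bound by TFEB (CACGTG, 6.02% of windows) and a pair of heat shock units (GAANNTTC, 6.69% of windows) were found in none of the members. The motif letters overlapped with no other motif in the printed windows. A match describes the letters only.

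The libraries held 4511730 to 24345368 reads on genes in control and 3306771 to 20027902 in cryptorchid, and 16932 genes passed the limit on low values (log2 of the mean RPM above -1, with RPM the reads of a gene scaled to library size), all 9 members among them. Across these genes the median difference was 0.10 on the log2 scale. Replicates 1 to 3 of both groups differed from replicates 4 and above in how often a gene's reads (1 to 20) were an even number, 53.2 to 60.8% against 48.2 to 50.5%, and in depth, and are referred to as 2 library sets. The sorted cells carried the markers of their gate, with summed levels of 10 genes of undifferentiated spermatogonia (*Gfra1*, *Zbtb16*, *Etv5* and others) of 1037 to 1546 RPM in control and 1190 to 1927 RPM in cryptorchid libraries, and none of the 10 past *P* 0.05. Of 5 spermatid markers 2 were lower, with a median sum of 1067 RPM in control and 274 RPM in cryptorchid libraries, whose ranges overlapped. Of 4 lymphocyte markers 2 were higher, with a median sum of 14.4 RPM (10.9 to 25.4) against 46.6 RPM (16.9 to 89.8), and of 4 endothelial markers 2 were higher, with 21.9 RPM (10.0 to 28.4) against 31.5 RPM (18.4 to 44.3). In 1 or more libraries 2 of the lymphocyte markers and 1 of the spermatid markers had no read. The part of these cells in the differences below was not tested.

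At the top of the axis, *Pik3ca* (ENSMUSG00000027665.13, chr3:32397671-32468486 in GENCODE vM21 on GRCm38, as for the positions that follow) was at 4.79, 5.93, 5.72, 5.56 and 5.66 log2 RPM in control replicates 1 to 5. In the cryptorchid libraries its lowest, median and highest values were 5.24, 6.38 and 6.97. All cryptorchid libraries except replicate 1 lay above every control library, and control replicate 1 was the lowest of all 12. Replicate 1 was thus the lowest library of both groups. The means were 5.53 ± 0.44 (SD, 5 libraries) and 6.35 ± 0.58 (SD, 7 libraries), from 228 to 1755 control reads and 356 to 845 cryptorchid reads per library. The log2 difference was 0.82 (SE 0.31, 95% interval 0.17 to 1.46, limma, unadjusted *P*=0.0168). Benjamini-Hochberg adjustment over all genes tested gave *P*=0.421, and the exact two-sided rank sum test over all assignments of the libraries to the groups gave *P*=0.0303 (adjusted 0.463). Within the library sets the difference was 0.42 for replicates 1 to 3, which did not pass the unadjusted limit. For replicates 4 and above the difference was 1.07 and passed (limma adjusted *P*=0.0767), as did 2934 of the 16932 genes tested. Without control replicate 1 the difference was 0.63 and passed neither test (limma *P*=0.0611, exact rank sum *P*=0.0727). Without cryptorchid replicate 1 it was 1.0 and passed both unadjusted (limma *P*=0.00216, adjusted 0.254, exact rank sum *P*=0.00433). A fit without both libraries numbered 1 was not run. The exact test alone also missed the limit without any of cryptorchid replicates 2 to 7 (*P*=0.0519).

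*Pik3ca* was thus 1 of 9 members called, or 11.1%, where 9.48% of all genes tested were called at the same limit (1606 of 16932), 5.67% as higher and 3.82% as lower. By the exact rank sum test 1 member was again called, against 9.63% of all genes. After adjustment 0.0118% of all genes (2 genes) and none of the members passed, and by the unadjusted limma test 1 member did. No member had groups that did not overlap, which held for 0.839% of all genes tested. The share of members called was near that of all genes.

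**Figure D1:**
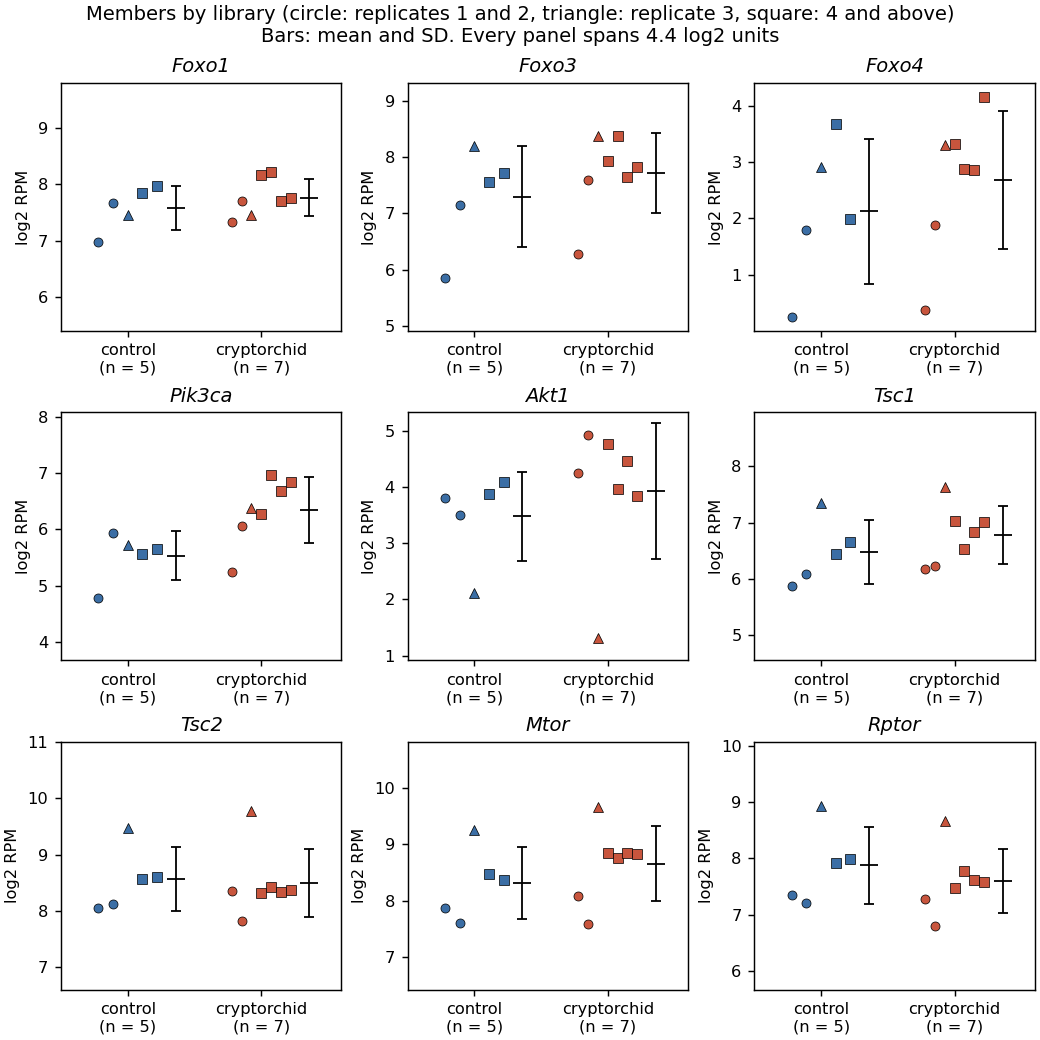
Level of each of the 9 genes in log2 RPM in every library, with control in blue and cryptorchid in red, and with the group mean and SD as black bars. Each panel spans the same number of log2 units. For *Pik3ca* 6 of 7 cryptorchid points lie above all control points, whereas the groups of the other genes overlap more widely, and the triangles of replicate 3 stand high for *Mtor*, *Rptor*, *Tsc1* and *Tsc2* and low for *Akt1*.

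*Akt1* (ENSMUSG00000001729.14, chr12:112653821-112674884), one of the 3 genes for the AKT kinase, was at 3.79, 3.50, 2.11, 3.88 and 4.09 log2 RPM in the control libraries. In cryptorchid its lowest, median and highest values were 1.32, 4.24 and 4.92. Replicate 3 was the lowest library in both groups, and 4 of 7 cryptorchid libraries lay above every control library. The log2 difference of 0.45 had an interval of -0.74 to 1.65 and did not pass (limma *P*=0.435, adjusted 0.841, exact rank sum *P*=0.149). It was covered by 44 to 338 control reads and by 21 to 422 cryptorchid reads per library. Without cryptorchid replicate 3 the difference was 0.89 (limma *P*=0.0475, adjusted 0.435, exact rank sum *P*=0.0303). It was 0.11 without control replicate 3 and 0.29 without cryptorchid replicate 2, and without both libraries numbered 3 *Akt1* did not pass.

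The TSC complex restrains mTORC1 through the GTPase RHEB, with TSC2 as the catalytic partner and TSC1 as its stabilizer. *Tsc1* (ENSMUSG00000026812.16, chr2:28641228-28691167) was at 5.87, 6.09, 7.35, 6.45 and 6.66 log2 RPM in control, and its lowest, median and highest cryptorchid values were 6.17, 6.83 and 7.64. The groups overlapped over most of their range, and the log2 difference was 0.30 (interval -0.35 to 0.94, limma *P*=0.346, adjusted 0.795, exact rank sum *P*=0.343). It was 0.14 without control replicate 1, 0.15 without cryptorchid replicate 3 and 0.51 without control replicate 3. *Tsc2* (ENSMUSG00000002496.10, chr17:24595816-24632630) was at 8.06, 8.11, 9.48, 8.56 and 8.60 log2 RPM in control, against a lowest, median and highest value of 7.82, 8.36 and 9.78 in cryptorchid. Its group means were close, with a log2 difference of -0.07 (interval -0.79 to 0.64, limma *P*=0.827, adjusted 0.960, exact rank sum *P*=0.755), and the sign turned without control replicate 3 (0.15) or without cryptorchid replicate 2 (0.04), while it was -0.29 without cryptorchid replicate 3. *Tsc2* shares 693 exonic bases with *Pkd1* on the other strand, and since the counting strand was not given, reads there cannot be told apart.

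*Mtor* (ENSMUSG00000028991.15, chr4:148448611-148557683), the kinase of both mTOR complexes, was at 7.87, 7.61, 9.26, 8.46 and 8.36 log2 RPM in control. Its lowest, median and highest cryptorchid values were 7.58, 8.84 and 9.66. The groups overlapped, with a log2 difference of 0.35 (interval -0.40 to 1.10, limma *P*=0.344, adjusted 0.794, exact rank sum *P*=0.432). Single libraries moved this value, to 0.17 without control replicate 2, 0.18 without cryptorchid replicate 3, 0.53 without cryptorchid replicate 2 and 0.58 without control replicate 3. Among replicates 4 and above the 4 cryptorchid libraries (8.85, 8.76, 8.84 and 8.84) lay above both control libraries. The difference there was 0.41 and passed the unadjusted limit (limma adjusted *P*=0.179), as did 2934 of the 16932 genes tested. In replicates 1 to 3 the difference was 0.20 and did not pass.

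*Rptor* (ENSMUSG00000025583.15, chr11:119602905-119899576) encodes Raptor, the subunit that defines mTORC1 and brings in its substrates. It was at 7.34, 7.21, 8.93, 7.91 and 7.99 log2 RPM in control, and its lowest, median and highest cryptorchid values were 6.80, 7.59 and 8.67. In 6 of 7 cryptorchid libraries *Rptor* was below the control mean of 7.88, the exception being replicate 3. The log2 difference was -0.28 (interval -0.98 to 0.43, limma *P*=0.420, adjusted 0.834, exact rank sum *P*=0.530). It was -0.01 without control replicate 3 and -0.14 without cryptorchid replicate 2, but -0.44 without control replicate 2 and -0.46 without cryptorchid replicate 3. *Rptor* shares 84 exonic bases with the antisense gene *Rptoros*.

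*Mtor* and *Rptor* rose and fell together across libraries, and their ratio within each library was set beside the levels. The log2 ratio of *Mtor* to *Rptor* RPM was 0.53, 0.40, 0.32, 0.55 and 0.37 in control replicates 1 to 5, and 0.80, 0.78, 0.99, 1.37, 0.99, 1.23 and 1.25 in cryptorchid replicates 1 to 7. The groups did not overlap. The means were 0.43 ± 0.10 (SD, 5 libraries) and 1.06 ± 0.23 (SD, 7 libraries), a difference of 0.62 on the log2 scale. In fold units there were 1.25 to 1.47 *Mtor* reads per *Rptor* read in control and 1.72 to 2.59 in cryptorchid libraries.

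The difference in this ratio was 0.44 in replicates 1 to 3 and 0.75 in replicates 4 and above. It ranged from 0.57 to 0.67 when each library was left out in turn and was 0.61 without both libraries numbered 3. Among the 36 pairs of members this was the only ratio whose groups did not overlap. For comparison, 0.473% of all other genes tested had a ratio to *Mtor*, and 1.10% a ratio to *Rptor*, whose groups did not overlap. The pair was chosen from these values, so no *P* is attached to it.

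**Figure D2:**
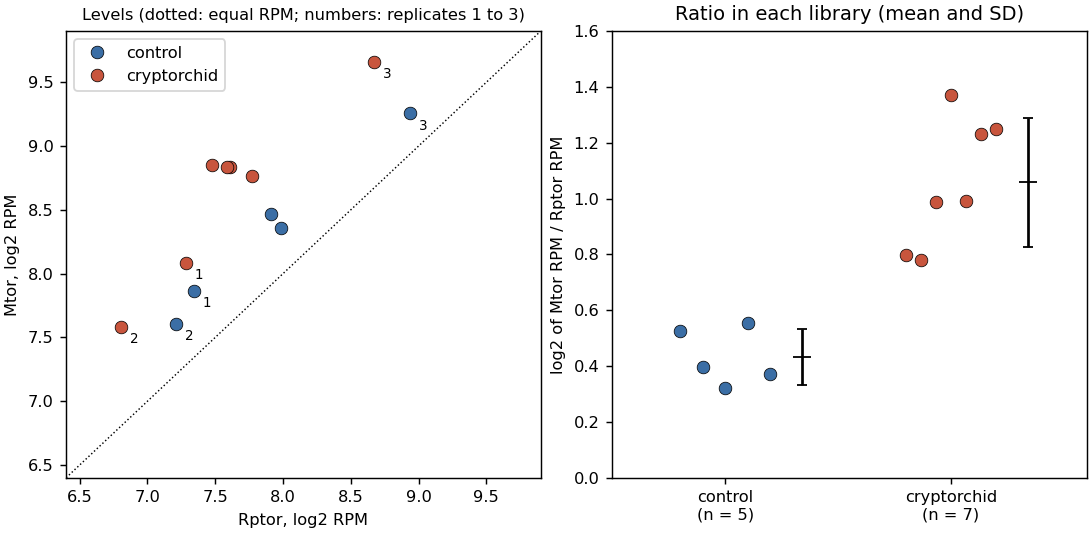
Left, *Mtor* against *Rptor* in log2 RPM for each library, with the dotted line at equal RPM and numbers at replicates 1 to 3. Right, the log2 ratio of *Mtor* to *Rptor* RPM per library, with mean and SD as black bars. The control ratios lie between 0.32 and 0.55 and the cryptorchid ratios between 0.78 and 1.37, while the levels of each gene alone overlap.

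The FOXO factors act in the nucleus when AKT signaling is low. *Foxo1* (ENSMUSG00000044167.6, chr3:52268336-52353221) was at 6.98, 7.66, 7.45, 7.84 and 7.97 log2 RPM in control, and its lowest, median and highest cryptorchid values were 7.34, 7.71 and 8.22. It had the smallest spread of the members, with an SD of 0.39 in control and 0.33 in cryptorchid. The groups overlapped, with a log2 difference of 0.18 and an interval of -0.35 to 0.71, or 0.78- to 1.64-fold (limma *P*=0.487, adjusted 0.861, exact rank sum *P*=0.530). Without control replicate 1 the difference was 0.03, and without each other library in turn it was 0.10 to 0.28. *Foxo1* shares 674 exonic bases with an antisense gene, *Gm20402*.

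*Foxo3* (ENSMUSG00000048756.11, chr10:42181841-42276755), known for holding oocytes in dormancy, was at 5.86, 7.15, 8.20, 7.56 and 7.72 log2 RPM in control. Its lowest, median and highest cryptorchid values were 6.27, 7.82 and 8.37. Replicate 1 was the lowest library in both groups, and the log2 difference of 0.42 did not pass (interval -0.42 to 1.25, limma *P*=0.311, adjusted 0.775, exact rank sum *P*=0.268). The difference was 0.05 without control replicate 1, 0.64 without control replicate 3 and 0.66 without cryptorchid replicate 1. *Foxo4* (ENSMUSG00000042903.8, chrX:101254528-101260873) was the least abundant member, at 0.25, 1.80, 2.92, 3.67 and 2.0 log2 RPM in control and with a lowest, median and highest value of 0.38, 2.87 and 4.15 in cryptorchid. Behind these levels were 18 to 100 control reads and 25 to 83 cryptorchid reads per library. Its log2 difference of 0.55 had the widest interval of the members, -0.93 to 2.03 (limma *P*=0.443, adjusted 0.842, exact rank sum *P*=0.530), so a change of under 2-fold in either direction was not detectable at this depth and spread. It was 0.08 without control replicate 1, 0.31 without cryptorchid replicate 7 and 0.94 without control replicate 4 or cryptorchid replicate 1.

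**Figure D3:**
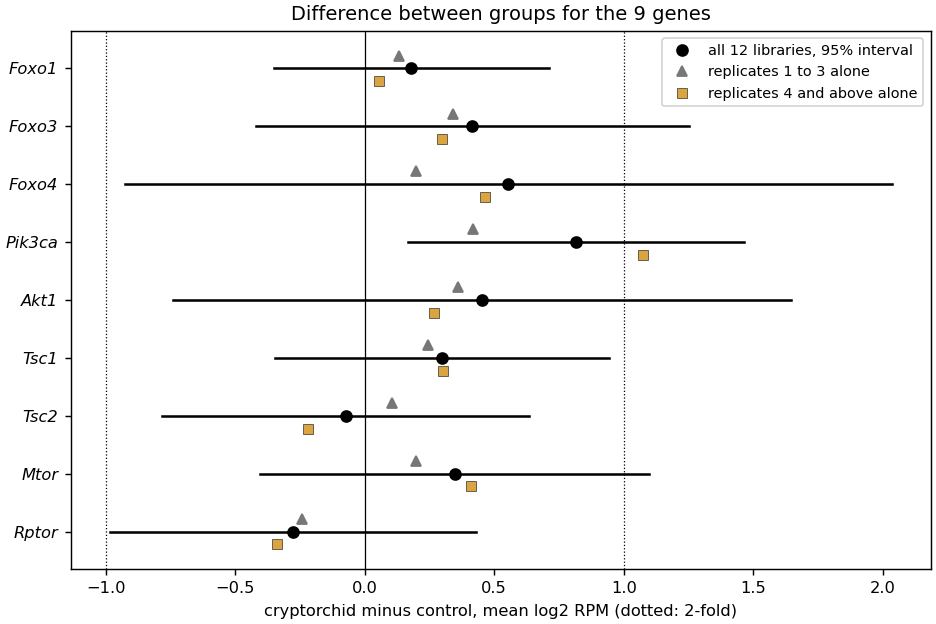
Difference in mean log2 RPM, cryptorchid minus control, for each of the 9 genes, with the 95% limma interval as a black line and the values within each library set as triangles and squares. The interval of *Pik3ca* alone lies above 0, and *Tsc2* has opposite signs in the 2 sets.

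In all, 7 of the 9 differences were positive and 2, *Rptor* and *Tsc2*, were negative, with a median of 0.35. Among all genes tested 9596 of 16932 differences were positive, and their median was 0.10. Under the 28 other settings the direction of *Pik3ca*, *Akt1*, *Tsc1*, *Mtor*, *Rptor*, *Foxo3* and *Foxo4* did not turn. *Foxo1* turned under 1 and *Tsc2* under 3. Some of these settings, such as the filters, leave the members' differences unchanged. The interaction with the library set passed for none of the 9 genes, with unadjusted limma *P* of 0.264 to 0.959.

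The libraries numbered 3 stood apart for these genes. In control and cryptorchid respectively, replicate 3 exceeded the mean of the other libraries of its group by 1.18 and 1.17 for *Mtor*, 1.32 and 1.25 for *Rptor*, 1.15 and 1.51 for *Tsc2*, 1.09 and 1.01 for *Tsc1*, and 1.13 and 0.76 for *Foxo3*, on the log2 scale. *Akt1* deviated by -1.71 and -3.04 in the same libraries. *Pik3ca* (0.24 and 0.03) and *Foxo1* (-0.16 and -0.36) were little moved.

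The same 2 libraries also showed more reads on genes that span long stretches of the genome. Genes were divided by span into 5 classes of equal number, and the median deviation of the longest class minus that of the shortest was 1.21 in control replicate 3 and 0.88 in its cryptorchid counterpart, while the remaining 10 libraries ranged from -0.49 to 0.22. Most members were longer than the median gene tested, with a median span of 70.8 kb against 24.8 kb over the genes tested, and 4 of them (*Foxo1*, *Foxo3*, *Mtor* and *Rptor*) were in the longest class. *Foxo4* spans 6.35 kb, *Akt1* 21.1 kb and *Rptor* 296.7 kb. *Foxo1* was a long gene that was not high in replicate 3, *Foxo4* was a short gene that was high there (0.99 and 0.73 above the mean of the other libraries of its group), and the part of gene span in the levels was not tested. Without both of these libraries, which was chosen after seeing the data, the log2 difference was 0.86 for *Pik3ca* (limma *P*=0.0239), 0.42 for *Mtor*, -0.19 for *Rptor*, 0.55 for *Akt1* and 0.53 for *Foxo3*, and *Pik3ca* was again the 1 member past *P* 0.05 in limma, whereas by the exact rank sum test none was.

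**Figure D4:**
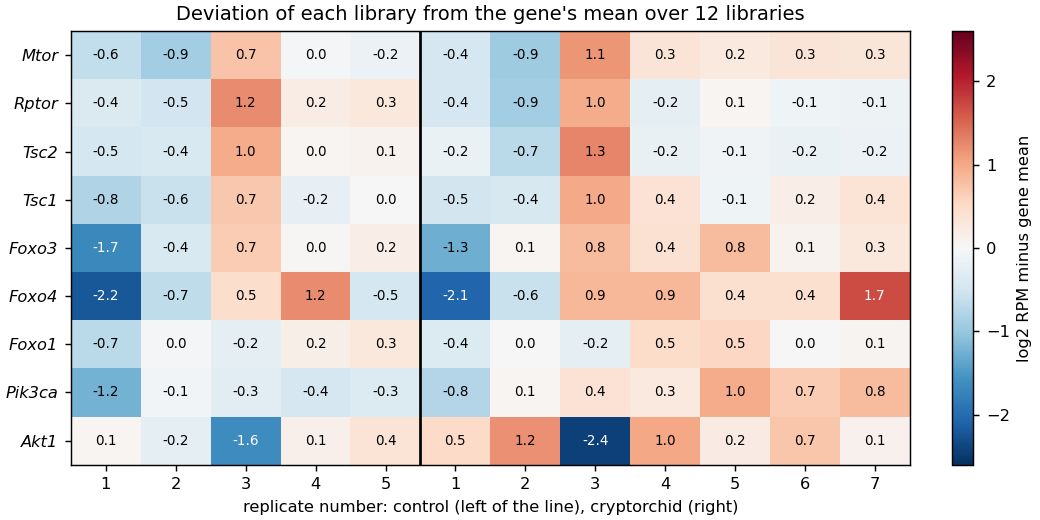
Deviation of each library from the gene's mean over the 12 libraries, in log2 RPM, with control left and cryptorchid right of the line. The columns of replicate 3 are red for *Mtor*, *Rptor*, *Tsc2*, *Tsc1* and *Foxo3* and blue for *Akt1* in both groups. Replicate 1 is blue for *Foxo3* and *Foxo4*, and less deeply for *Pik3ca*, in both groups.

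To compare levels between genes, RPM was divided by the exonic length in kb. On the scale of log2 RPM per kb, the control means ran from *Tsc2* (5.30 ± 0.57, SD, 5 libraries) and *Mtor* (4.97 ± 0.63) through *Foxo1* (4.47 ± 0.39), *Foxo3* (4.38 ± 0.89) and *Rptor* (4.12 ± 0.68) to *Tsc1* (2.92 ± 0.57), *Pik3ca* (2.35 ± 0.44), *Akt1* (1.44 ± 0.79) and *Foxo4* (0.32 ± 1.29). *Tsc2* was at the 93.3 and *Foxo4* at the 29.2 percentile of the genes tested. Within libraries the steps from *Tsc2* to *Mtor* (0.32 ± 0.15), from *Rptor* to *Tsc1* (1.21 ± 0.17) and from *Tsc1* to *Pik3ca* (0.57 ± 0.53) were larger than their SD. Each step to the next gene from *Mtor* through *Foxo1* and *Foxo3* to *Rptor*, and from *Pik3ca* through *Akt1* to *Foxo4*, was within 1 SD. These steps compare neighbours only. *Mtor* had more RPM than *Rptor* in every library and a shorter exonic length (10.1 against 13.5 kb), so per kb it also stood above *Rptor* throughout. In cryptorchid libraries the step from *Tsc2* to *Mtor* was -0.10 ± 0.37 and that from *Tsc1* to *Pik3ca* was 0.05 ± 0.58, so neither neighbour differed beyond the spread there, while *Rptor* stayed above *Tsc1* in all 7 libraries (0.63 ± 0.30). If reads were counted over whole gene bodies, which was not stated, exonic length is not the right divisor for the long genes.

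The genes most like each member were found by the root mean square (RMS) difference of mean-centred log2 RPM over the 12 libraries. *Rptor* was followed most closely by *Gtf3c1* (RMS 0.17) and by the member *Tsc2* (0.18), *Mtor* by *Bcas3* (0.16) and *Yeats2* (0.18), *Tsc2* by *Tbc1d22a* (0.17) and *Gtf3c1* (0.18), and *Tsc1* by *Zfp664* (0.18). For comparison, the RMS of *Mtor* around its own mean was 0.62 and that of *Rptor* 0.58. The nearest genes to *Pik3ca* were *Lpgat1* (0.25), with a log2 difference of 0.76, and *Bicc1* (0.25), with 0.62. *Foxo1* was nearest to *Ankrd12* (0.17) and *Nploc4* (0.19), and *Foxo3* to *Btbd7* and *Tnrc6c* (both 0.23). *Akt1*, whose nearest genes were *Cwc15* (0.34) and *Hdgf* (0.37), had no member closer than *Foxo1* at 0.93. *Foxo4* had no close match (*Zfp462*, 0.51, and *Angpt2*, 0.54). This likeness includes the shared deviations of the libraries numbered 3 and carries no test.

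The rest of the pathway was followed through 84 further genes in 10 lists, all of which passed the limit on low values. Of these, 5 were higher and 3 lower in cryptorchid spermatogonia at an unadjusted *P* of 0.05, which is 9.52% and near the 9.48% of all genes tested, and none passed after adjustment in this fit. With library weights 3 passed after adjustment (*Eif4ebp1*, *Insr* and *Sesn2*), in a fit where 476 of the 16932 genes tested did. That fit gave replicates 1 to 3 weights of 0.37 to 0.79 and replicates 4 and above weights of 1.26 to 2.97. The median log2 difference was 0.11, against 0.10 over all genes. By the exact rank sum test 10 of 84 were called, against 9.63% of all genes.

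Among receptors and adaptors upstream of PI3K, 2 of 7 genes rose. *Insr*, the insulin receptor, was at 4.39 ± 0.86 log2 RPM in control (3.48 to 5.52) and 5.62 ± 0.76 in cryptorchid (4.17 to 6.49), with 4 of 7 cryptorchid libraries above every control (log2 difference 1.23, SE 0.42, unadjusted *P*=0.00934, adjusted 0.366 in limma). *Irs2*, an adaptor between the insulin receptor and PI3K, was 1.21 higher on the log2 scale (SE 0.46, unadjusted *P*=0.0179, adjusted 0.425). Its cryptorchid range of 3.67 to 5.41 overlapped the control range of 1.7 to 4.24, and the difference was 0.89 without control replicate 1, where it did not pass. The GDNF receptor genes did not pass, with log2 differences of 0.52 (interval -0.32 to 1.36) for *Gfra1*, whose reporter was used in the sort, and 0.23 (interval -0.29 to 0.76) for *Ret*. *Gfra1* passed without control replicate 3, at 0.83 (limma adjusted *P*=0.372), and was 0.25 without control replicate 1 and 0.32 without cryptorchid replicate 3. All 7 differences in this list were positive, as were 48 of all 84 further pathway genes and 9596 of the 16932 genes tested.

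Of the other PI3K subunits 1 of 7 fell. *Pik3r2*, the regulatory p85β subunit that binds the catalytic subunits, went from 6.46 ± 0.69 to 5.46 ± 0.85 log2 RPM (log2 difference -1.0, SE 0.40, unadjusted *P*=0.0232, adjusted 0.443 in limma), with 4 of 7 cryptorchid libraries below every control. Without control replicate 1 or control replicate 2 the difference was -0.84 and did not pass. Over the 7 subunits the log2 differences ran from -1.41 to 0.98. None of 8 phosphatases and inhibitors passed. None of 5 AKT-related kinases passed, with *Akt2* at -0.08 (interval -0.64 to 0.49), and none of 7 other mTOR complex subunits, with *Rictor*, which defines mTORC2, at -0.20 (interval -0.79 to 0.39).

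Around RHEB none of 4 genes passed the limma limit. *Rheb* itself had a log2 difference of -0.15 (interval -0.68 to 0.39). *Ddit4*, which encodes REDD1, an inhibitor of mTORC1 induced by stress, had a log2 difference of 1.0 (interval -0.05 to 2.04, limma *P*=0.0596), with 5 of 7 cryptorchid libraries above every control and an exact rank sum *P* of 0.0177. It passed in limma without control replicate 1 (1.19), control replicate 4 (1.24) or cryptorchid replicate 7 (1.17). None of 6 LKB1 and AMPK genes passed.

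Among 18 genes of amino acid sensing at the lysosome 1 rose and 1 fell. *Fnip1*, a folliculin partner, went from 4.45 ± 0.52 to 5.53 ± 0.42 log2 RPM, and 6 of 7 cryptorchid libraries lay above every control (log2 difference 1.08, SE 0.31, unadjusted *P*=0.00261, adjusted 0.244 in limma). *Sesn2*, a leucine sensor that restrains mTORC1, went from 5.91 ± 0.70 to 4.94 ± 0.43 log2 RPM (log2 difference -0.97, SE 0.33, unadjusted *P*=0.00884, adjusted 0.362 in limma), and did not pass the exact rank sum test (*P*=0.0732). Its difference was -0.34 in replicates 1 to 3 and -1.76 in replicates 4 and above.

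Of 10 outputs of AKT and mTORC1, 1 rose and 1 fell. *Eif4ebp1*, which encodes the translational repressor 4E-BP1, had the smallest *P* of the 84 genes. It was at 5.16 to 7.10 log2 RPM in control and 4.21 to 5.90 in cryptorchid libraries, and 4 of 5 control libraries lay above every cryptorchid library. Its log2 difference was -1.47 (SE 0.37, interval -2.25 to -0.70, unadjusted *P*=0.00087, adjusted 0.208 in limma). *Tfeb*, a transcription factor of lysosomal genes held in the cytoplasm by mTORC1, had a log2 difference of 1.52 (interval 0.09 to 2.94, unadjusted *P*=0.0382, adjusted 0.490 in limma) from 3 to 67 control reads and 16 to 97 cryptorchid reads per library.

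Among *Foxo6* and 11 known FOXO target genes 1 rose, *Sesn1*, a stress-responsive relative of *Sesn2*, with a log2 difference of 0.67 (SE 0.30, unadjusted *P*=0.0410, adjusted 0.502 in limma). The other 11 genes of the list did not pass, and the median of the list was 0.21. *Tfeb* lost its call without any of 6 libraries in turn, and *Sesn1* without any of 7, with differences of 1.14 to 1.49 for *Tfeb* (control replicates 1 and 5, cryptorchid replicates 3, 4, 6 and 7) and 0.51 to 0.69 for *Sesn1* (control replicates 1 and 2, cryptorchid replicates 3 to 7). Within replicates 1 to 3 alone none of the 84 genes passed.

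**Figure D5:**
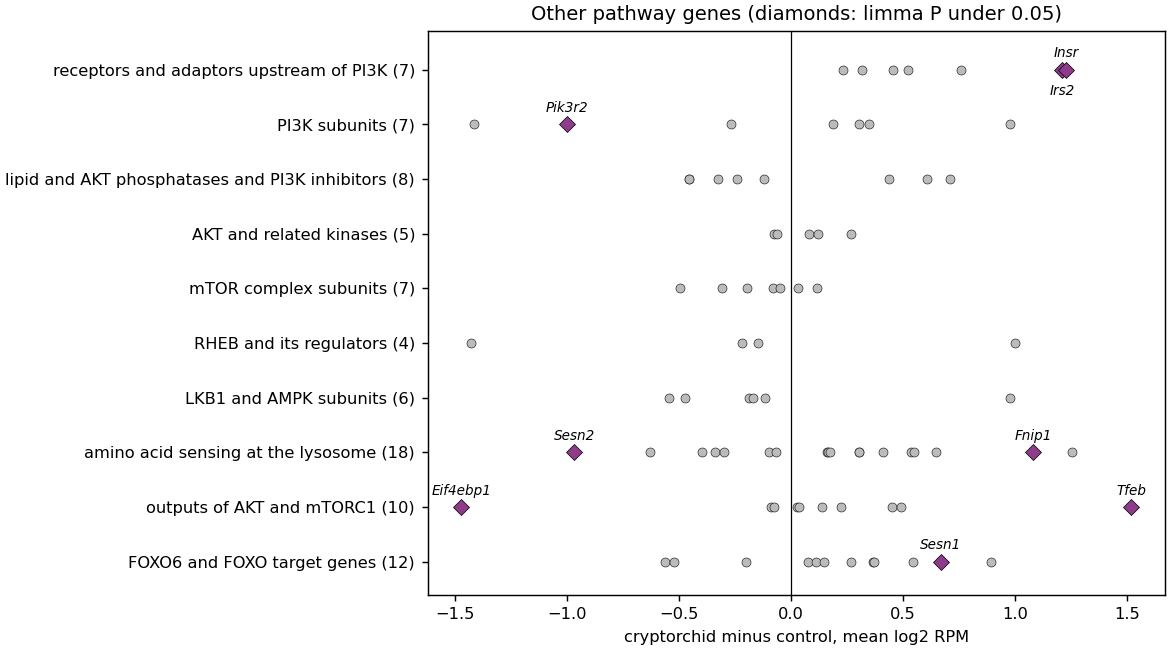
Log2 difference of 84 further pathway genes, cryptorchid minus control in mean log2 RPM, by list with the number of genes in brackets, and with diamonds at an unadjusted limma *P* under 0.05. The named diamonds are 5 to the right of 0 and 3 to the left, spread over 5 of the 10 lists.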

How the data were processed

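RNA of GFRa1+/KIT- spermatogonia was measured in 5 control and 7 cryptorchid libraries, grouped by their titles. The authors trimmed the Smart-seq2 reads with Trim Galore 0.6.6, checked them with FastQC 0.11.8, mapped them to mm10 with HISAT2 2.1.0, and used SeqMonk to count reads on the protein-coding genes. The values deposited by the authors are log2 RPM. Strand, and whether exons or gene bodies were counted, are not given in the sources used here. The authors tested counts with edgeR. The deposited table holds log2 values, so limma 3.58.1 (R 4.3.3, trend) was run on them after genes at or below a log2 mean RPM of -1 had been left out (16932 remained), cryptorchid minus control, two-sided, with Benjamini-Hochberg adjustment over these genes. A fold change of low genes is limited by the floor that the authors set for genes without reads. An exact two-sided rank sum test, whose smallest *P* is 0.00253, was run for every gene. Whole reads were recovered from the steps between low values (100% whole within 0.1 reads) and give the depth. Read numbers cover counting error only.

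The 9 members and the lists were chosen with earlier results of these data known. Genes named besides the members were those of the lists with an unadjusted limma *P* under 0.05 and some chosen whatever their values (among them *Gfra1*, *Ret*, *Ddit4*, *Rheb*, *Rictor* and *Akt2*), together with the 2 genes tested that were most like each member. Some genes that this rule names are not reported here. Of 10 marker lists, those of Sertoli, Leydig, peritubular myoid cells, macrophages and spermatocytes had no gene past *P* 0.05, and that of differentiating spermatogonia had 1, which was higher. Gene positions are from GENCODE vM21 on GRCm38, the build of mm10, for 21378 of the genes, and promoter sequences are from RefSeq on GRCm38.p6. Alternatives were median centring, quantile normalization, pseudocounts of 0.1 and 1, no filter and a filter at 2, library weights, limma's voom on the recovered reads with trimmed-mean scaling, a term for the library set, each set alone, a common floor, the replicate number as a block, and leaving out each library. Leaving out both libraries numbered 3 and centring within 5 classes of gene span were added after seeing the data. The fits were tested on simulated data. Python 3.11.15, numpy 2.4.6, pandas 2.3.3, scipy 1.17.1 and matplotlib 3.10.9 were used.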

Additional observations from a re-analysis of the deposited data

Results flagged for a closer look

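For the 9 members and 15 further pathway genes, each of the 48 groups of libraries was checked for a lone value by Dixon's criterion, which chance meets in about 1 in 20 groups, and 5 were met. *Akt1* in cryptorchid replicate 3 was at 1.32 log2 RPM, or 21 reads, whereas its group otherwise ranged from 3.84 to 4.92. *Tsc2* in the same library was at 9.78 log2 RPM, or 7397 reads, against 7.82 to 8.43. *Foxo3* in cryptorchid replicate 1 was at 6.27 log2 RPM, or 1719 reads, against 7.60 to 8.37. Among the pathway genes, *Irs2* in cryptorchid replicate 2 was at 5.41 log2 RPM (476 reads) against 3.67 to 4.27, and *Pik3r2* in cryptorchid replicate 7 was at 3.68 log2 RPM (60 reads) against 5.47 to 6.42.

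Among the 24 genes checked, the difference between cryptorchid and control varied with the library set, before adjustment, for *Sesn2*, a restrainer of mTORC1. It was -0.34 on the log2 scale in replicates 1 to 3 and -1.76 in replicates 4 and above, and these differed by -1.42 (limma interaction, unadjusted *P*=0.0259, adjusted 1.0). The phosphatase gene *Inppl1*, not among the genes checked and named after its values were seen, also passed unadjusted. Its differences were -1.05 and 0.27 (limma interaction, unadjusted *P*=0.0392), and neither gene passed after adjustment.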

How the results depend on the processing

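Of the members' single values under the other settings, 238 stayed on their side of *P* 0.05 with the same sign, 8 newly passed, 2 no longer passed and 4 changed sign. These are not separate checks. The filter and floor settings left the members' differences unchanged, and the 2 block fits gave equal differences. *Foxo3*, *Mtor* and *Rptor* are each counted as newly passed in both block fits. *Pik3ca* passed in 26 of 28 settings, with unadjusted limma *P* from 0.00119 to 0.425 and adjusted *P* from 0.0599 to 1.0. The exceptions were replicates 1 to 3 alone and the fit without control replicate 1. Part of this count was fixed in advance. The filter and floor settings left the *Pik3ca* difference at 0.82, and both block fits gave 0.65. The causes of the changes below were not tested. *Foxo1* was -0.0836 with centring within 5 classes of gene span, *Tsc2* was 0.10 in replicates 1 to 3 alone and -0.29 to 0.15 without each library in turn, and *Rictor* was 0.0287 in replicates 4 and above. Centring by span also took *Mtor* from 0.35 to 0.0846. It took *Rptor* from -0.28 to -0.54 (limma *P*=0.0528, exact rank sum *P*=0.0303). *Akt2* was 0.0223 with the term for the library set, 0.0823 in replicates 1 to 3 alone, 0.14 with either replicate block, and -0.21 to 0.0129 without each library in turn.

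Of the 16932 genes, 3391 instead of 1606 passed the unadjusted limit with library weights, 633 in replicates 1 to 3 alone and 2934 in replicates 4 and above. After adjustment, where 2 passed, 4 passed with median centring, 4 with quantile normalization, 4 with centring by span, 10 with voom, 46 with the set term, 476 with library weights, 0 in either set alone, and 0 to 9 without each library in turn. The members past *P* 0.05 were 1, and 0 in replicates 1 to 3 alone, 2 in replicates 4 and above (*Pik3ca* and *Mtor*), and 0 to 2 without each library in turn, with 0 without control replicate 1 and 2 without cryptorchid replicate 3 (*Pik3ca* and *Akt1*). The pathway genes past *P* 0.05 were 8, and 20 with library weights, 0 in replicates 1 to 3 alone, and 5 to 12 without each library in turn, the 5 being without control replicate 1. After adjustment no member passed in any setting, and of the pathway genes 3 passed with library weights (*Eif4ebp1*, *Insr* and *Sesn2*). By the exact test 1 member passed, but 0 with median centring, 0 without both libraries numbered 3, 2 with centring by span (*Pik3ca* and *Rptor*), and 0 to 1 without each library in turn. It was 0 without control replicate 1 and without any of cryptorchid replicates 2, 4, 5, 6 and 7, and the 1 member without cryptorchid replicate 3 was *Akt1*. The exact test was not run within the sets, where the smallest two-sided *P* is 0.1 and 0.133, nor with weights, the set term or the block.

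Replicate numbers are shared by both groups in the labels, but nothing says that they mark a mouse or a day. Same-numbered libraries had correlated deviations from their group means for numbers 1 to 4 (0.25 to 0.41). Each of control libraries 1 to 4 correlated most with the cryptorchid library of its own number. Number 5 did not (0.05) and correlated more with another number. The numbers were therefore not taken to pair the libraries, and the main fit does not account for what same-numbered libraries share. With the replicate number as a block, 3782 genes passed the unadjusted limit for replicates 1 to 5 and 3759 for all libraries, 985 and 949 passed after adjustment, 26 and 25 pathway genes passed, and 4 members passed in either fit (*Foxo3*, *Pik3ca*, *Mtor* and *Rptor*). For all libraries the unadjusted limma *P* with the block was 0.00806 for *Foxo3*, 0.00506 for *Pik3ca*, 0.0411 for *Mtor* and 0.0481 for *Rptor*. The log2 differences were 0.41, 0.65, 0.28 and -0.28 in that order. After adjustment 5 and 4 pathway genes passed with the block, *Eif4ebp1*, *Fnip1*, *Insr* and *Txnip* in both and *Lamtor1* in the former, the last 2 named after their values were seen. Depth limits *Foxo4* and *Akt1* most, with as few as 18 and 21 reads in a library.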
